A study of Mus musculus with 2 samples.

Results

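The genes described here are classical targets of the transcription factor NRF2 that supply the antioxidant systems of the cell, together with Keap1, its inhibitor. The list named 10 genes (Nqo1, Gclc, Gclm, Txnrd1, Srxn1, Slc7a11, Prdx1, Keap1, G6pdx and Gsr), and a probe set was taken for a gene only where the platform annotation gave that gene and no other. This left 8 genes with 18 probe sets, out of 18193 genes with 34945 such probe sets on the array. The 5 probe sets that name Prdx1 also name the pseudogene Gm21399, so no value is given for Prdx1, and no probe set is paired with G6pdx in the annotation used here.

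Total RNA was hybridised to 1 Affymetrix array from c-Maf KO (c-Maf-/-) and 1 from wild-type (c-Maf+/+) embryos of the C57BL/6J strain at E15.5, untreated in both genotypes. Each sample held Mac-1 and F4/80 double positive cells of fetal liver obtained by flow sorting, and Mac-1 and F4/80 are encoded by Itgam and Adgre1. The labels used here do not say how many embryos went into a sort. With 1 array per genotype no test, p-value or replicate error exists, and every difference below describes these 2 arrays.

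NRF2, the product of Nfe2l2, is held in the cytoplasm by KEAP1, which hands it to a CUL3 ubiquitin ligase for breakdown. When electrophiles or oxidants modify KEAP1, NRF2 builds up, pairs with a small Maf protein (MAFF, MAFG or MAFK) and binds antioxidant response elements. Its targets make glutathione, reduce thioredoxin and peroxiredoxins, detoxify quinones and supply NADPH. c-Maf is a large Maf protein that binds related DNA elements, and BACH1 is a heme-sensing repressor that competes for such sites. In fetal liver, macrophages take up the nuclei that red cells expel and handle their heme and iron.

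The c-Maf KO array was dimmer by its median, with a deposited signal of 2.98 against 4.73 on the wild-type array. The 18 hybridisation control probe sets went the other way, with a median deposited log2 ratio of 0.24. The median log2 ratio of c-Maf KO over wild type was -0.93 in the 9238 genes whose signal exceeded the floor in both genotypes, where the floor is the 50th percentile of all deposited values (3.70). It was -1.33 in the brightest of 5 signal bins and -0.29 in the dimmest. Ratios are therefore given mainly after quantile normalization, called level-adjusted here, with its own floor of 3.75, and deposited signals stand beside them. On that scale the bin medians were -0.19 in the brightest and 0.43 in the dimmest bin, so dim genes lean upward. A ratio with 1 array below the floor is only a bound. Level-adjusted log2 ratios of different probe sets of the same gene had a spread of 0.64 (pooled SD over 3167 probe sets of 1315 genes). Only probe sets above the floor on both arrays with a mean signal at least 4 times the floor were used. Dimmer probe sets are not covered. The spread is within these 2 arrays, so it holds no biological variation. Maf itself had a deposited signal of 0.219 on the c-Maf KO array and 47.6 on the wild-type array, at least 8.51-fold lower after level adjustment, by its brightest probe set. Of 6 Maf probe sets, 5 reached the level-adjusted floor and 2 of these were past 2-fold downward. The other 3 were near the floor on the wild-type array, with deposited signals of 4.82 to 5.50. On the c-Maf KO array they had 0.519 to 3.25. The floor limits how far such ratios can fall, and their log2 ratios or bounds ran up to 0.069. Whether its probes lie in the deleted part is not known here. In bulk RNA, fewer cells of a type and less RNA per cell cannot be told apart.

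As a group the NRF2 targets stood close to the rest of the array. By the brightest probe set of each gene, 1 of 8 genes (Keap1) was lower by 2-fold or more and 1 of 8 (Slc7a11) at least 2-fold higher after level adjustment, beside 9.05% lower and 8.34% higher among all 13290 genes that reached the floor in either genotype. The median log2 ratio of the 8 genes was 0.26, against 0.0087 over all those genes. Counted by probe set, 1 of 18 was past 2-fold downward and 3 of 18 upward, beside 8.82% and 8.71% of all probe sets. In deposited signal, 2 of the 8 genes (Keap1 and Txnrd1) were lower by 2-fold or more and 0 higher, beside 39.8% and 1.19% of 13479 genes, with a median of -0.88 against -0.79 over all genes. By probe set these counts were 2 and 0 of 17, beside 36.6% and 1.27%. The counts of these genes are thus near those of the array as a whole on the level-adjusted scale.

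**Figure D1:**
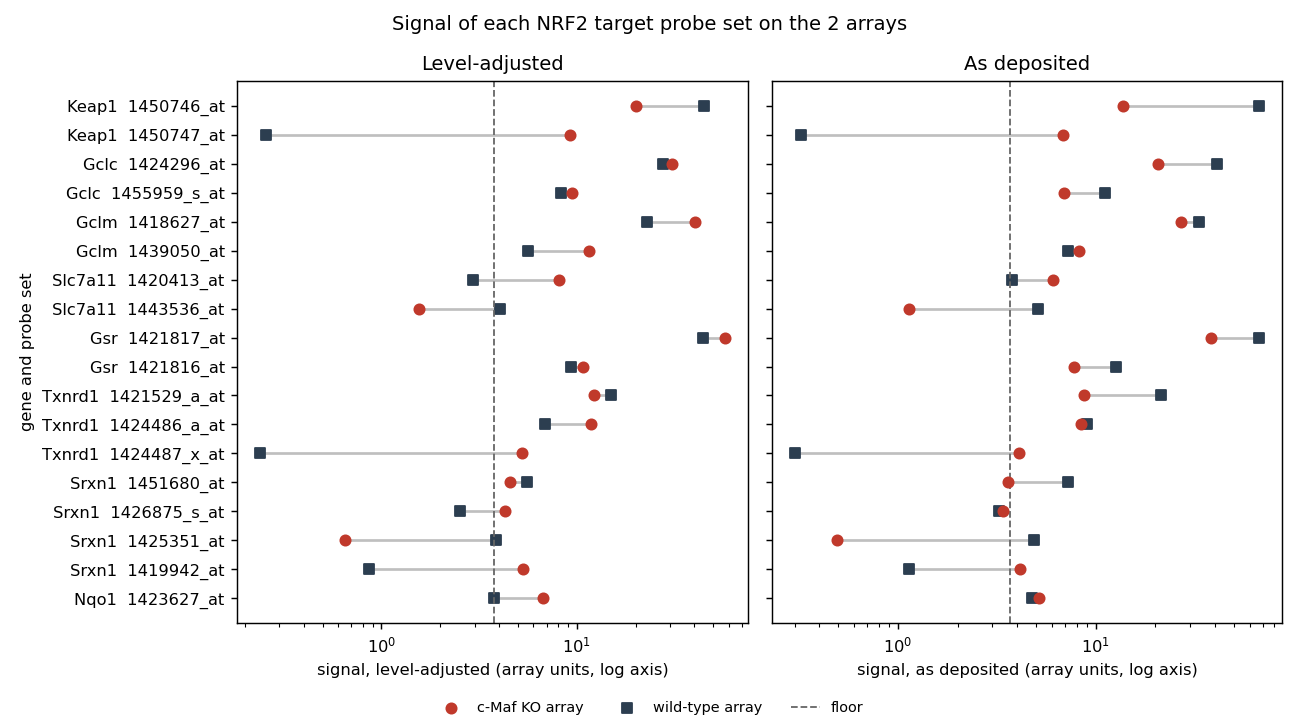
Signal of each of the 18 probe sets on the c-Maf KO array (circles) and the wild-type array (squares), level-adjusted on the left and as deposited on the right, on log axes in array units, with the floor dashed. Both Gsr and both Gclc probe sets lie to the right for c-Maf KO after level adjustment and to the left as deposited, while the 2 Keap1 probe sets point in opposite directions on both scales.

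The core of the antioxidant response element was searched as TGACNNNGC on both strands of RefSeq promoter windows. The windows ran from 250 bases before to 50 after each annotated start (GRCm38.p6). Windows were found for 8 of the 10 listed genes, 10 windows in all because Txnrd1 has 3; Gclc and Gsr had no entry. The core stood in 5 of the 10 member windows, against 12.4% of all 32851 windows. The matches are shown because NRF2 binds elements of this type, with the match in capitals and the strand that of the gene.
Gclm, chr3:122245403-122245451 (+): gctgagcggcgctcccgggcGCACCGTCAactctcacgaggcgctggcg
Txnrd1, chr10:82859094-82859142 (+): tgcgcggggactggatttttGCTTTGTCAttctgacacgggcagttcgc
Srxn1, chr2:152105532-152105560 (+): gccacggcgggcagtgggcaGCTAGGTCA
Prdx1, chr4:116685446-116685494 (+): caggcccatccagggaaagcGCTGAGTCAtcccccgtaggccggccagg
G6pdx, chrX:74428909-74428957 (-): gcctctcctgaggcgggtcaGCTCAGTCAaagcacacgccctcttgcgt
All 5 are matches of the complementary strand, and the Srxn1 match lies after the annotated start. Variants of the core were not searched, so these matches do not show which stretch NRF2 binds. The letters TGANTCA, the core bound by NF-E2 and AP-1, were chosen for the search after the data were seen. They stood in 2 of the 10 member windows, those of Srxn1 and Prdx1, against 7.81% of all windows. One of the Prdx1 matches overlaps its antioxidant response element core. The letters TGCTGAC, an arm of the Maf recognition element, stood in 0 of the 10 member windows, against 4.67% of all. Windows of Nqo1, Slc7a11 and Keap1 held none of the 3 motifs, which says only that these letters are not in these 300 bases.

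Keap1, the sensor that restrains NRF2, had the lowest ratio and also the widest disagreement between probe sets. Its brighter probe set, 1450746_at, had a deposited signal of 13.8 on the c-Maf KO array and 67.0 on the wild-type array. The log2 ratio was -1.15 after level adjustment and -2.28 as deposited, and it was below 0 under all 5 scalings examined. In rank, the signal stood at the 87.2nd percentile of the c-Maf KO array and the 93.8th percentile of the wild-type array. The other probe set, 1450747_at, had 6.81 on the c-Maf KO array and 0.323 on the wild-type array, where it was far below the floor. That gave at least 2.47-fold higher after level adjustment, in the opposite direction. The 2 probe sets lay 2.46 log2 units apart, and their mean log2 ratio was 0.078, so Keap1 was 2-fold lower by its brighter probe set only.

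The glutathione genes include the enzyme that makes the first peptide bond of glutathione, a dimer of the catalytic subunit GCLC and the modifier subunit GCLM. Gclm had deposited signals of 27.0 on the c-Maf KO array and 33.4 on the wild-type array by probe set 1418627_at. Its second probe set, 1439050_at, had 8.22 on the c-Maf KO array and 7.24 on the wild-type array. Both probe sets of Gclm stood higher in rank on the c-Maf KO array, at the 93.3rd percentile there and the 88.5th on the wild-type array for the first, and at the 79.3rd there and the 62.3rd on the wild-type array for the second. Their level-adjusted log2 ratios were 0.83 and 1.04, but the brighter was at -0.30 as deposited and -0.55 with hybridisation controls set equal.

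Gclc had 20.6 on the c-Maf KO array and 41.0 on the wild-type array by 1424296_at, and 6.92 on the c-Maf KO array and 11.1 on the wild-type array by 1455959_s_at. These were level-adjusted log2 ratios of 0.15 and 0.19, close to 0 and to each other, against -0.99 and -0.68 as deposited. The brighter Gclc probe set had almost the same place in both genotypes, at the 91.3rd percentile on the c-Maf KO array and the 90.4th on the wild-type array. The modifier subunit gene stood above it in ratio by 0.68 log2 units (brighter probe sets, level-adjusted), about the spread between bright probe sets of the same gene.

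Gsr encodes glutathione reductase, which regenerates reduced glutathione with NADPH. Probe set 1421817_at had 38.0 on the c-Maf KO array and 66.5 on the wild-type array, and 1421816_at had 7.76 on the c-Maf KO array and 12.7 on the wild-type array. The level-adjusted log2 ratios were 0.37 and 0.22, and the deposited ones -0.81 and -0.71. Its probe sets lay within 0.15 log2 units of each other, and neither reached 2-fold on either scale.

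Slc7a11 encodes the light chain of the cystine-glutamate exchanger that brings in the cysteine used for glutathione. Probe set 1420413_at had 6.08 on the c-Maf KO array and 3.76 on the wild-type array, a deposited log2 ratio of 0.70, the highest among the brightest probe sets of the 8 genes. After level adjustment it was at least 2.17-fold higher, since the wild-type signal then lay below the floor, and its ratio was above 0 under all 5 scalings. The other probe set, 1443536_at, went the other way, with 1.14 on the c-Maf KO array, below the floor, and 5.11 on the wild-type array. All 4 deposited signals lay less than 2-fold above the deposited floor, so Slc7a11 was dim on both arrays.

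**Figure D2:**
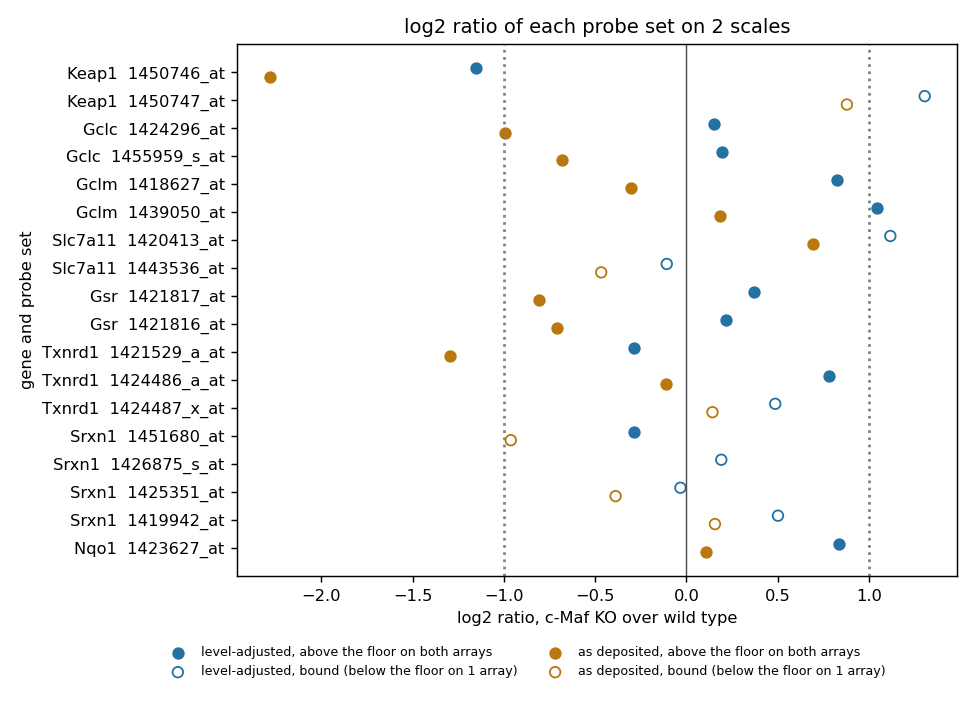
Log2 ratio of c-Maf KO over wild type for each probe set, level-adjusted (blue) and as deposited (orange), with open circles for bounds and dotted lines at 2-fold. Level-adjusted, 13 of the 18 probe sets lie above 0, beside 51.0% of all probe sets on the array. As deposited 6 of the 17 with a ratio do, beside 16.9% of all.

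The thioredoxin genes were mixed. Txnrd1 encodes the cytosolic thioredoxin reductase, a selenoprotein that reduces thioredoxin with NADPH. Its brightest probe set, 1421529_a_at, had 8.69 on the c-Maf KO array and 21.3 on the wild-type array, a log2 ratio of -0.28 level-adjusted and -1.30 as deposited. Probe set 1424486_a_at had 8.39 on the c-Maf KO array and 9.05 on the wild-type array, a level-adjusted ratio of 0.78. The third, 1424487_x_at, had 4.09 on the c-Maf KO array and 0.302 on the wild-type array, below the floor. The first probe set was thus lower and the other 2 higher on the c-Maf KO array after level adjustment. All 3 carry a suffix that marks probes able to match several transcripts, and the mean log2 ratio over them was 0.33.

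Srxn1 encodes sulfiredoxin, which repairs overoxidised peroxiredoxins. Its 4 probe sets were all dim. Probe set 1451680_at had 3.59 on the c-Maf KO array and 7.21 on the wild-type array, with a level-adjusted log2 ratio of -0.28. Probe set 1425351_at had 0.493 on the c-Maf KO array and 4.84 on the wild-type array, and 1419942_at had 4.13 on the c-Maf KO array and 1.14 on the wild-type array. Probe set 1426875_s_at had 3.38 on the c-Maf KO array and 3.23 on the wild-type array, below the deposited floor on both, so it has no deposited ratio. Of the other 3, 2 were lower and 1 higher on the c-Maf KO array in deposited signal, and no level-adjusted ratio or bound reached 2-fold.

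Nqo1 encodes the quinone reductase that is the textbook NRF2 target, and it was represented by 1 probe set near the floor. Its deposited signal was 5.13 on the c-Maf KO array and 4.76 on the wild-type array. In rank that was the 67.6th percentile on the c-Maf KO array and the 50.2nd on the wild-type array. The log2 ratio was 0.84 level-adjusted, short of 2-fold, 0.11 as deposited, and -0.13 with hybridisation controls set equal.

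**Figure D3:**
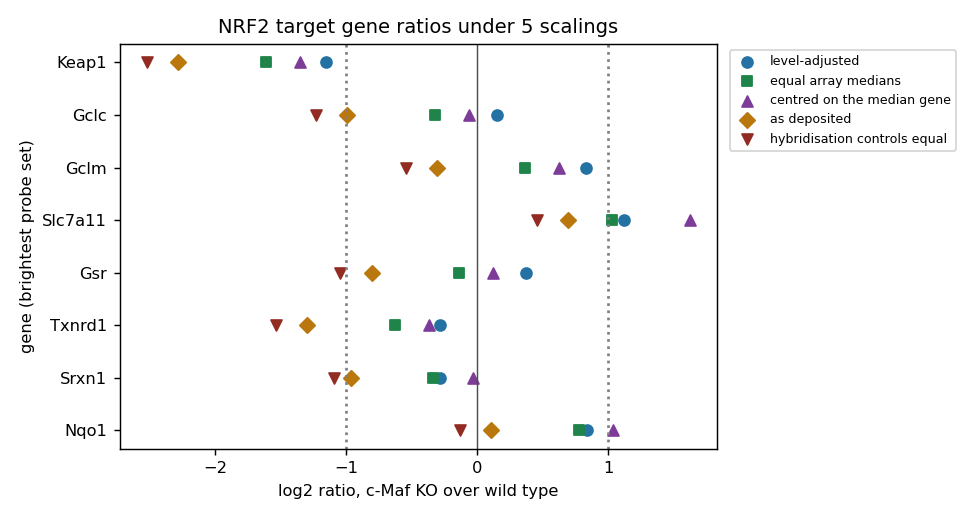
Log2 ratio of c-Maf KO over wild type for the brightest probe set of each gene under 5 scalings of the arrays, with dotted lines at 2-fold. Keap1, Txnrd1 and Srxn1 are below 0 and Slc7a11 above 0 under all 5, while Gclc, Gclm, Gsr and Nqo1 change side.

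The factors that control these genes did not all go the same way. Of 8 regulator genes, 7 had a ratio and 1, Rbx1, was below the floor on both arrays. After level adjustment 5 of the 7 were above 0 and 2 below, beside 50.4% of all genes above 0. In deposited signal 2 were above 0 and 5 below, beside 15.8% of all genes above 0. On the level-adjusted scale 0 were past 2-fold downward and 1 upward, beside 9.05% and 8.34% of all genes. The median log2 ratio was 0.45, which is the Maff bound. As deposited 2 were past 2-fold downward and 0 upward, beside 39.8% and 1.19% of all genes. Nfe2l2 had 23.9 on the c-Maf KO array and 42.1 on the wild-type array (0.32 level-adjusted, -0.82 as deposited). The small Maf genes were at 0.48 for Mafk, -0.44 for Mafg and a bound of at least 1.37-fold higher for Maff, which was below the floor on the wild-type array. A second Mafg probe set was at 1.06. Bach1 had 42.0 on the c-Maf KO array and 127 on the wild-type array, level-adjusted -0.43. The regulator past 2-fold was Sqstm1, encoding p62, an autophagy receptor that binds KEAP1 and is itself an NRF2 target. Sqstm1 had 33.1 on the c-Maf KO array and 25.1 on the wild-type array, a log2 ratio of 1.51 level-adjusted and 0.40 as deposited.

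Other genes of the same pathways are given as lists for comparison. For scale, 9.05% of all genes were past 2-fold downward and 8.34% upward after level adjustment. As deposited the shares were 39.8% and 1.19%. In deposited signal every list median was below 0, from -0.45 for further NRF2 targets to -1.31 for superoxide dismutases and catalase. Among 16 of 20 further glutathione genes with a ratio, 1 was past 2-fold downward and 2 upward, with a level-adjusted median of 0.35. As deposited, 6 of 17 were past 2-fold downward and 0 upward. The higher ones were Gstm5, a glutathione transferase (18.6 on the c-Maf KO array and 16.3 on the wild-type array, 1.24, but -0.052 with hybridisation controls set equal), and Gpx4, the peroxidase that reduces lipid hydroperoxides (1518 on the c-Maf KO array and 1174 on the wild-type array, 1.03). The other Gpx4 probe set was at 0.63, and the brighter was at 0.13 with hybridisation controls set equal. The lower gene was the microsomal transferase gene Mgst2, with 24.0 on the c-Maf KO array and 110.0 on the wild-type array (-1.04). Slc3a2, the heavy chain partner of SLC7A11 and chosen after its value was seen, was at 0.36.

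Of 12 measured thioredoxin and peroxiredoxin genes, 0 were past 2-fold downward and 2 upward after level adjustment, with a median of 0.21, against 4 downward and 0 upward as deposited. The 2 were Prdx4, the peroxiredoxin of the endoplasmic reticulum (20.8 on the c-Maf KO array and 16.5 on the wild-type array, 1.39), and Prdx3, that of mitochondria (41.7 on the c-Maf KO array and 42.8 on the wild-type array, 1.12). Prdx3 was slightly lower in deposited signal (-0.037), and Prdx4 probe sets disagreed, the lowest being at -0.68. Superoxide dismutases and catalase had 0 of 3 measured genes past 2-fold in either direction after level adjustment, with a median of -0.14. All 3 were past 2-fold downward as deposited. For both lists, the shares over all genes were 9.05% downward and 8.34% upward after level adjustment, and 39.8% and 1.19% as deposited.

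Enzymes of NADPH supply and of the rest of the pentose phosphate pathway were listed together, and not all of them, Tkt included, make NADPH. They were mixed, with 6 of 10 genes below 0 and 4 above after level adjustment. Over all genes the shares were 49.5% below 0 and 50.4% above. Past 2-fold lay 9.05% of all genes downward and 8.34% upward after level adjustment, and 39.8% downward as deposited. Of the 10, 1 was past 2-fold downward and 0 upward on the level-adjusted scale, with a median of -0.22, and 7 were past 2-fold downward as deposited. The lower gene was Tkt, encoding transketolase of the pentose phosphate pathway, with 757 on the c-Maf KO array and 3135 on the wild-type array (-1.38). Its other probe set was at -0.39. As a bright gene Tkt belongs to the signal range whose median was -0.19 on this scale.

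Among 11 of 15 further NRF2 targets with a ratio, 3 were past 2-fold upward and 0 downward after level adjustment, with a median of 0.34, against 1 upward and 2 downward as deposited. These were Hmox1, which opens the heme ring (49.2 on the c-Maf KO array and 19.5 on the wild-type array, 2.42), Blvrb, a biliverdin reductase (42.8 on the c-Maf KO array and 22.5 on the wild-type array, 2.03), and Fth1, the ferritin heavy chain gene (625 on the c-Maf KO array and 333 on the wild-type array, 1.90). These 3 heme and iron genes were also higher in deposited signal on the c-Maf KO array. Across all genes 8.34% were past 2-fold upward and 9.05% downward after level adjustment, against 1.19% and 39.8% as deposited. Abcc1, an exporter of glutathione conjugates and chosen after its value was seen, was at -0.83.

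Markers of other cells differed on the same arrays. Their counts stand beside 9.05% of all genes past 2-fold downward and 8.34% upward after level adjustment. As deposited these shares were 39.8% and 1.19%. Of 10 hepatoblast markers, 8 had a probe set, 7 a ratio, and all 7 were past 2-fold upward on the level-adjusted scale (median 1.74), with 2 past it and a median of 0.70 in deposited signal. Their summed level-adjusted signal was 822 on the c-Maf KO array and 238 on the wild-type array, and the deposited sums were 552 in c-Maf KO and 352 in wild type, with Fgb below the floor on both. Hepatocytes also express many antioxidant genes, and the part of these cells in the values above was not tested. Macrophage markers had a level-adjusted median of 0.60, with 3 of 9 past 2-fold upward and 0 downward, and sums of 1056 on the c-Maf KO array and 986 on the wild-type array. In deposited signal this turned, with a median of -0.55, 0 upward and 2 downward, and sums of 733 on the c-Maf KO array and 1434 on the wild-type array. Adgre1 had a deposited signal of 48.1 on the c-Maf KO array and 71.4 on the wild-type array. Itgam was near the floor, with 3.94 on the c-Maf KO array and 5.76 on the wild-type array. Of 9 granulocyte markers 2 were past 2-fold downward and 0 upward after level adjustment (sums of 10587 in c-Maf KO and 12220 in wild type), and 6 downward and 0 upward as deposited (8666 in c-Maf KO and 14943 in wild type). Of 5 measured erythroid markers 0 were past 2-fold downward and 1 upward after level adjustment (5824 in c-Maf KO and 8353 in wild type), and 2 downward and 0 upward as deposited (5143 in c-Maf KO and 8028 in wild type). Most of the deposited sums came from 1 gene, Hbb-y (4650 in c-Maf KO and 7061 in wild type). After level adjustment 2 of the 5 lay above 0 and 3 below. Megakaryocyte markers had 1 of 5 past 2-fold downward on either scale, with sums of 138 in c-Maf KO and 112 in wild type after level adjustment, and 93.0 in c-Maf KO and 163 in wild type as deposited. Mast cell and basophil markers had 1 of 4 measured past 2-fold downward after level adjustment (76.3 in c-Maf KO and 67.1 in wild type), and 2 as deposited (52.4 in c-Maf KO and 96.8 in wild type).

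**Figure D4:**
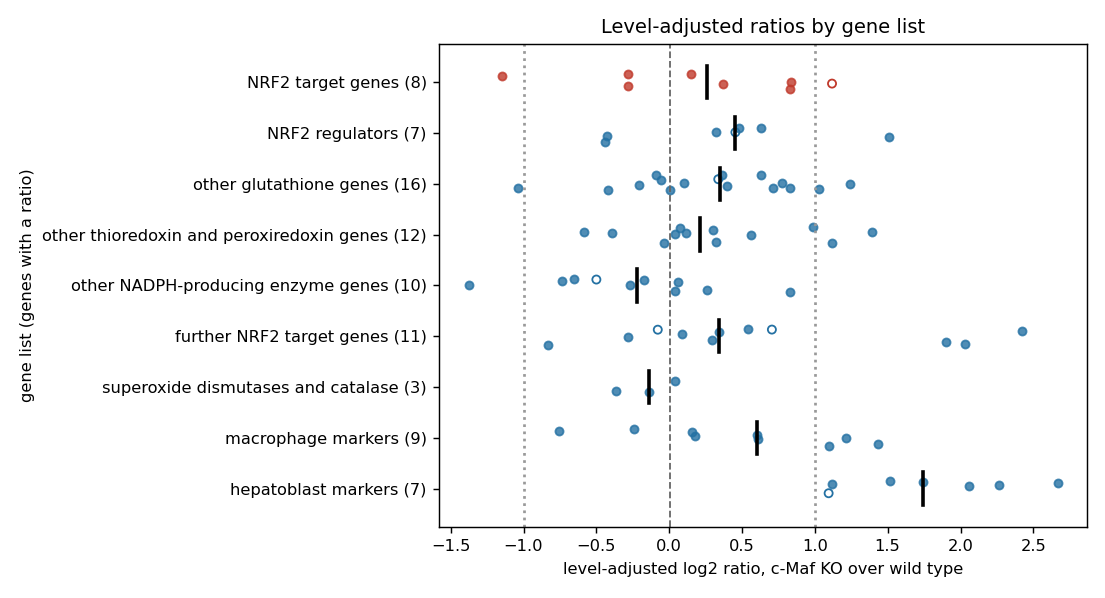
Level-adjusted log2 ratios of c-Maf KO over wild type for the genes of each list, with black bars for list medians, a dashed line for the median of all genes, open circles for bounds and dotted lines at 2-fold. The 8 NRF2 target genes spread from -1.15 (Keap1) to a bound of 1.12 (Slc7a11) around a median of 0.26, and the hepatoblast markers lie apart above 1.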

How the data were processed

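Values were 1 linear intensity per probe set and array, deposited by the authors for 45101 probe sets. The sources used here do not state how these intensities were summarised, scaled or filtered. The deposited values ran from 0.0203 to 10606. Of the probe sets, 64 were controls, 34945 had 1 gene symbol, 932 several and 9160 none, and 34741 of the probe sets with 1 symbol were matched by Entrez identifier to the GRCm38.p6 gene table.

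Signals were quantile-normalized on the log2 scale, raised to the floor, and the log2 ratio of c-Maf KO over wild type was taken. A gene was represented by its probe set of highest mean deposited signal. Probe sets that reached the floor in either genotype were kept. The ratio procedure was run on simulated data, with changes larger than 2-fold planted in bright genes only. That run does not show how it performs for dim genes or for changes near 2-fold. The genes and lists were chosen with earlier results of these data known, so no pattern is independent support. Named were the 10 listed genes, Maf, fixed regulators and Hmox1, and up to 4 genes per list and direction past 2-fold. Alternatives were 4 other scalings, 2 floors, a pseudocount, no filter, other probe set rules and thresholds of 1.5-fold and 3-fold. Python 3.11.15, numpy 2.4.6 and pandas 2.3.3 were used. The number of arrays limits the precision.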

Additional observations from a re-analysis of the deposited data

How the results depend on the processing

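No paired analysis was possible because each genotype had 1 array. The member counts rested on the scaling and the threshold. With values as deposited, 2 genes were lower and 0 higher (probe sets 2 and 0), with a median log2 ratio of -0.88. With hybridisation controls set equal, 5 genes were lower and 0 higher (probe sets 5 and 0), with a median of -1.07. This scaling lowers c-Maf KO signals by a further 0.24 log2 units from the deposited scale, where 39.8% of all genes were lower. Apart from the deposited scale, no share over all genes was counted for the alternatives, so their counts are not set against the whole array. With ratios centred on the median gene, 2 genes and 6 probe sets were higher. The floor at the 25th percentile gave 3 lower and 5 higher probe sets, and that at the 65th percentile 0 higher genes and 0 higher probe sets. The floor as a pseudocount gave 0 higher genes. The mean over probe sets gave 0 lower and 0 higher genes, and Keap1 was then at 0.078. At 1.5-fold 3 genes and 6 probe sets were higher, and at 3-fold 0 genes and 0 probe sets were lower or higher. With equal array medians the counts stayed within 1.5 times the main ones, and the median was -0.23. Removing the filter on low values could change nothing, since all 8 genes and 18 probe sets already passed it. Without suffixed probe sets Txnrd1 had no value. Then 1 gene was lower and 1 higher, with a median of 0.37. Over its 10 alternatives Slc7a11 ran from 0.41 to 1.63, and Keap1 from -2.52 to 0.078. Signals of Nqo1, Slc7a11 and Srxn1 near the floor limit what their ratios show.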
